A study of Mus musculus with 58 samples.

Results

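The first day of retinoic acid (RA) differentiation without DPY30 was examined in 4 of the 58 samples of the series, 2 labelled auxin and 2 labelled DMSO at RA day 1. These samples were grouped by their labels, and they were chosen with earlier results of these data known. All 4 were measured by Quant-seq, which reads the 3′ ends of polyadenylated transcripts, and the reads of all 3′ UTR intervals of a gene were summed. The cells were E14 mouse embryonic stem (mES) cells of 129/Ola origin, in homozygous clones carrying a mini auxin-inducible degron (mAID) with a BFP tag at the stop codon of Dpy30, and the plant receptor OsTIR1 from a piggyBac transposon under hygromycin selection. They had spent 1 day in 1 µM all-trans RA without LIF, either with auxin, which directs the tagged DPY30 protein to the proteasome, or with the solvent DMSO. The number of clones, the auxin dose and the time between auxin and RA in this experiment are not given in the sources used here. All compared samples carry the degron and OsTIR1, and no auxin-treated cells without the degron were analysed here, so the effects of DPY30 loss and of auxin itself cannot be told apart.

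Samples of the same cells served as neighbours in time: DMSO at 0 h, before RA, and auxin and DMSO at 8 h and at day 2 of RA (2 samples each). Cells treated with auxin for 24 h without RA, together with their 0 h controls (3 SLAM-seq samples each), gave values beside those of RA day 1. Because the degron acts on the protein, the Dpy30 transcript does not check the label. It was measured at 58.0 and 46.7 CPM (read counts scaled to library size) with auxin and at 61.3 and 59.2 CPM with DMSO (log2 fold change -0.20, adjusted p = 0.553 by edgeR's quasi-likelihood test).

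DPY30 is a core subunit shared by the SET1/COMPASS family of complexes, which methylate lysine 4 of histone H3. The trimethylated form, H3K4me3, marks active promoters. RA enters the nucleus, binds RAR-RXR receptors on DNA and switches mES cells from self-renewal towards neural and endodermal fates, with the anterior Hox genes, the RA-degrading enzyme Cyp26a1 and the receptor Rarb among its direct targets, while the naive pluripotency network is shut down.

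The day 1 samples held between 1553987 and 1843040 reads in genes. The 2 auxin samples had 1717095 and 1553987 reads and the 2 DMSO samples 1843040 and 1815062, so genes below about 10 reads per sample were measured imprecisely. Values are given as CPM of the TMM-normalised library size, as mean ± SD over 2 samples, and fold changes as log2 of auxin over DMSO. The labels do not say whether replicates came from separate cultures, so the spread behind the p-values may be technical. That spread was estimated jointly over the 21 samples in 11 groups of the RA fit, not from the day 1 samples alone. Sox2 was at 523 and 493 CPM with auxin and 459 and 470 CPM with DMSO, and Nanog at 589 and 619 CPM against 467 and 564 CPM. Neither of these pluripotency genes passed edgeR's quasi-likelihood test (adjusted p = 0.481 and 0.372). Some other pluripotency genes had fallen far below their level at 0 h, as given further on. In bulk RNA, fewer cells of a type and less RNA per cell cannot be told apart, which holds for every gene below.

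At day 1, 273 of 11415 tested genes changed at an adjusted p below 0.05 and more than 2-fold (edgeR's quasi-likelihood test, Benjamini-Hochberg over all tested genes). Of these, 116 genes (1.02% of those tested) were higher with auxin and 157 (1.38%) were lower. Their median log2 fold changes were 1.54 and -1.44. Without the fold threshold, 487 genes (4.27%) were higher and 339 (2.97%) lower. All 273 genes had no overlap between the 2 auxin and the 2 DMSO samples, which held for 53.2% of all tested genes. The counts depended on having both replicates. Without auxin replicate 1 or 2 there were 65 and 62 genes higher and 81 and 84 lower, and without DMSO replicate 1 or 2 there were 67 and 73 higher and 82 and 104 lower. Part of the changed genes were scarce: 70 of the 116 and 85 of the 157 reached 20 CPM in their higher group, and 6 in each direction had no read in the other group.

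**Figure D1:**
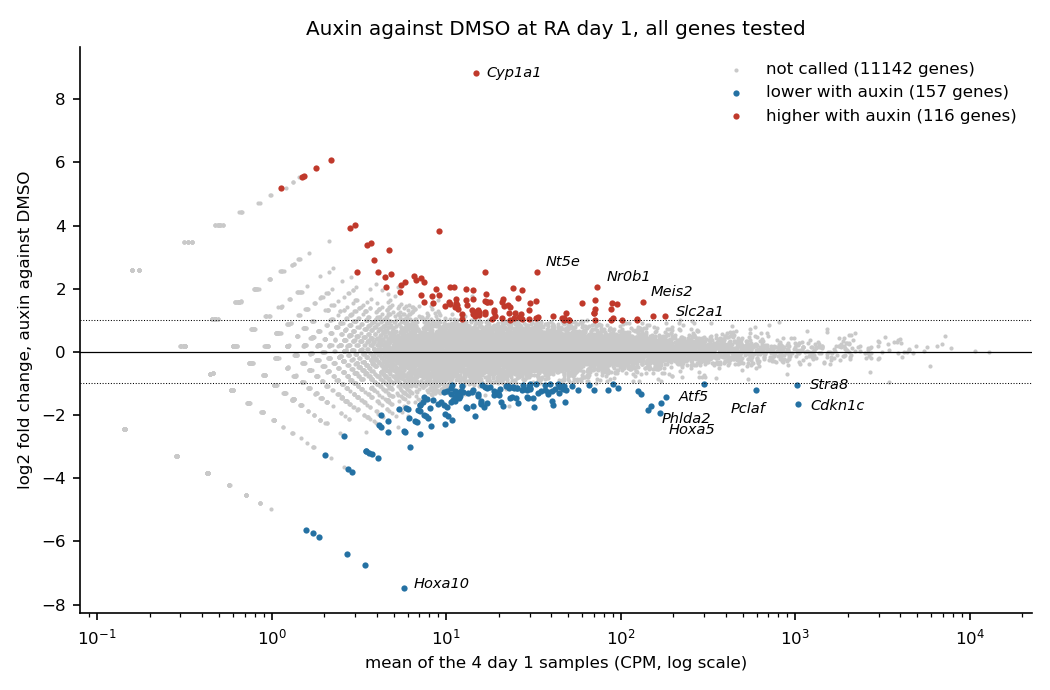
Log2 fold change of auxin over DMSO at RA day 1 (vertical axis) against the mean of the 4 samples in CPM (horizontal axis, log scale), 1 point per tested gene; red and blue points are the 116 genes higher and 157 lower with auxin, and dotted lines mark the fold threshold. Cdkn1c and Hoxa5 are abundant genes well below the lower line, and the points at the far upper and lower left are genes with no read in 1 group, whose fitted fold change is not a measured size.

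The RA response as a whole was asked about with genes chosen by a contrast that holds no day 1 sample. Its filter, scaling and spread came from the fit over all RA groups, with day 1 among them. Between 0 h and day 2 in DMSO, 1854 genes (16.2% of those tested) rose and 1158 (10.1%) fell. Of the 1854 RA-induced genes, 70 (3.78%) were lower with auxin at day 1 and 35 (1.89%) higher, with a median log2 fold change of -0.11 beside 0.03 over all tested genes. Of the 1158 RA-repressed genes, 34 (2.94%) were higher and 17 (1.47%) lower, with a median of 0.20. Seen from the other side, 44.6% of the 157 lower genes were RA-induced and 10.8% RA-repressed. The 116 higher genes were 30.2% RA-induced and 29.3% RA-repressed. The lower genes were thus richer in RA-induced genes than the tested genes at large, whereas the higher genes were richer in both kinds.

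For each sample, the progress along the DMSO time course was taken as the median over genes of the share of the log2 change from DMSO 0 h to DMSO day 2. On RA-induced genes, the auxin samples at day 1 stood at 0.717 and 0.711 and the DMSO samples at 0.786 and 0.797 (0.714 ± 0.00442 against 0.792 ± 0.00819, n = 2 each). On RA-repressed genes they stood at 0.824 and 0.845 with auxin and at 0.949 and 0.967 with DMSO (0.835 ± 0.0152 against 0.958 ± 0.0126). Both auxin samples lay below both DMSO samples in each set, with mean differences of 0.0776 and 0.123 on this scale. The two-sided exact permutation test gave p = 0.33 for each, the smallest that 2 against 2 allows. At 8 h the order was the other way round, with auxin at 0.248 and 0.259 and DMSO at 0.215 and 0.238 on RA-induced genes. At day 2 the auxin samples were at 0.940 and 0.955 on RA-induced genes, and at 0.773 and 0.791 on RA-repressed genes. On RA-repressed genes the DMSO samples themselves were back at 0.756 and 0.769 at day 4. On RA-induced genes auxin was at 1.06 and 1.05 at day 4 and DMSO at 1.04 and 1.02. A lower value therefore does not by itself mean an earlier stage.

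**Figure D2:**
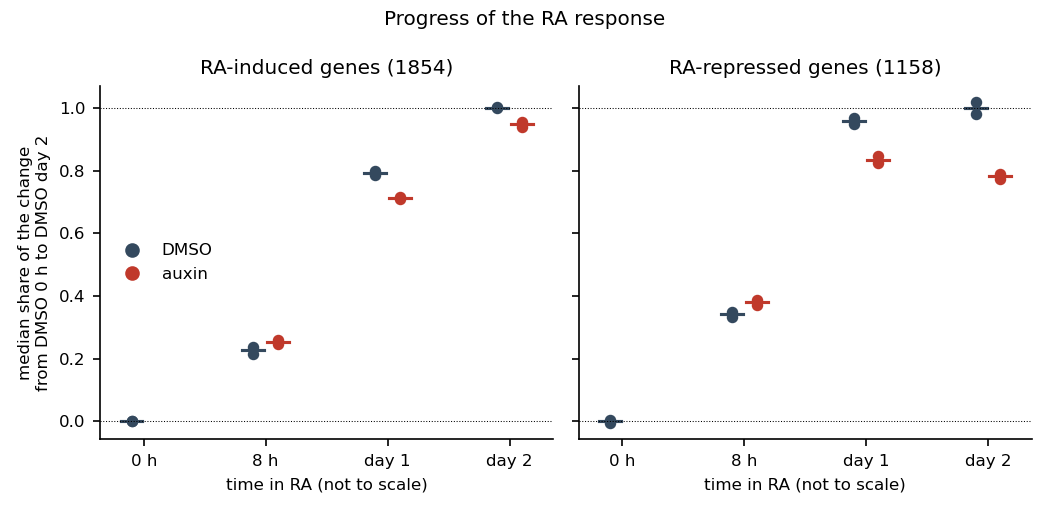
Progress of each sample along the DMSO time course (vertical axis: median share of the log2 change from DMSO 0 h to DMSO day 2) at 0 h, 8 h, day 1 and day 2 (horizontal axis, not to scale), for 1854 RA-induced and 1158 RA-repressed genes; points are samples, bars their means, and DMSO at 0 h and day 2 set the scale. At day 1 the auxin samples lie at 0.717 and 0.711 (induced) and at 0.824 and 0.845 (repressed), below both DMSO samples.

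Of 40 tested genes of RA response and retinoid metabolism, Stra6, the cell surface receptor that takes up retinol, was higher and Stra8, an RA-induced gene of meiotic entry, was lower, which is 2.50% in each direction and close to the 1.02% and 1.38% of all tested genes. The median of the 40 was 0.17. Without TMM factors 1 was higher and 3 lower. The promoters of Rarb and Cyp26a1 are shown because they carry the DR5 motif, the direct repeat bound by RAR-RXR, through which RA acts on its own receptor and on its own degradation. The sequences are from RefSeq (GRCm38.p6), 5′ to 3′ along the strand of the match, with the motif in capitals.
Rarb, chr14:16575507-16575535, minus strand, centred 44 bases upstream of the start: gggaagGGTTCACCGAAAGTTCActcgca
Cyp26a1, chr19:37697770-37697798, minus strand, centred 24 bases upstream of the start of a plus-strand gene: caaattAGTTCACCCAAAGTTCAtcttta
Rarb had 10.1 and 15.3 CPM with auxin and 18.2 and 13.8 CPM with DMSO (log2 fold change -0.34 ± 0.34 SE, adjusted p = 0.61). Cyp26a1 had 77.5 and 60.6 CPM with auxin and 56.2 and 53.5 CPM with DMSO (0.34 ± 0.26 SE, adjusted p = 0.489). The Rarb samples of the groups overlapped, and for Cyp26a1 both auxin samples lay above both DMSO samples by less than the test required. Before RA, at DMSO 0 h, Cyp26a1 had no read and Rarb had 0.485 and 0 CPM, so both targets were switched on in the presence of auxin.

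Searched on both strands of the windows from 250 bases before to 50 bases after each start, DR5 matched 32 of 32851 RefSeq windows (0.0974%) and the windows of 5 of 9045 tested genes (0.0553%). It matched none of the windows of 84 higher and 118 lower genes that had one. Among other targets, Rarg, the main RA receptor of mES cells, stood at 136 ± 15.3 CPM with auxin and 95.7 ± 9.25 CPM with DMSO (0.51, adjusted p = 0.0224) without reaching 2-fold. Dhrs3, which converts retinal back to retinol, stood at 32.5 ± 7.52 CPM with auxin and 28.3 ± 0.960 CPM with DMSO (0.21, adjusted p = 0.635). Stra6 had 13.2 and 19.5 CPM with auxin and 5.11 and 6.90 CPM with DMSO (1.43, adjusted p = 0.0164), a call that was lost without auxin replicate 2 or either DMSO replicate (adjusted p up to 0.222).

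Stra8 was the abundant exception. It had 687 and 652 CPM with auxin and 1430 and 1327 CPM with DMSO (log2 fold change -1.04 ± 0.10 SE, adjusted p = 1.57e-07). All 4 samples lay far above the 19.9 and 19.5 CPM of DMSO at 0 h, so Stra8 was induced with auxin too, to a lower level. At day 2 its auxin samples (786 and 771 CPM) were close to its DMSO samples (847 and 882 CPM; -0.15, adjusted p = 0.352).

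The Hoxa and Hoxb genes, whose collinear activation follows RA from the anterior end of each cluster, were lower with auxin in part. Of 18 tested Hoxa and Hoxb genes, 5 were lower (Hoxa5, Hoxa9, Hoxa10, Hoxb3 and Hoxb4; 27.8%, beside 1.38% of all tested genes) and Hoxb1 was higher. The median log2 fold change of the 18 was -0.90, and 16 lay below 0. DESeq2 called 1 higher and 2 lower. Their summed level was 405 and 419 CPM with auxin and 761 and 726 CPM with DMSO.

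Hoxa5 (chromosome 6, 52201754 to 52204587, GRCm38) had 78.1 and 59.9 CPM with auxin and 262 and 271 CPM with DMSO, a 3.85-fold lower level (log2 fold change -1.94 ± 0.14 SE, adjusted p = 1.74e-09). Hoxb4 had 22.1 and 30.0 CPM with auxin and 68.7 and 47.7 CPM with DMSO (-1.17, adjusted p = 0.00183). For both genes the groups were well apart, but the Hoxb4 call was lost without auxin replicate 1 or DMSO replicate 1 (adjusted p up to 0.0665). Hoxb3 had 12.6 and 9.75 CPM with auxin and 34.1 and 22.4 CPM with DMSO (-1.33, adjusted p = 0.016). Hoxa9 had 4.41 and 3.48 CPM with auxin and 18.2 and 13.2 CPM with DMSO (-1.97, adjusted p = 0.00909). The calls of Hoxb3 and Hoxa9 were lost without either auxin replicate or without DMSO replicate 1 (adjusted p up to 0.205 and 0.101), and DESeq2 called neither. Hoxa10 had no read in either auxin sample and 40 reads in the DMSO samples (14.2 and 8.62 CPM), which is at least 11.5-fold lower when the floor is set at 3 reads over the auxin group. DESeq2 did not call it.

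The anterior gene Hoxb1 gave other values. Hoxb1, an early RA target of the hindbrain, had 64.9 and 71.1 CPM with auxin and 27.8 and 30.5 CPM with DMSO (log2 fold change 1.22 ± 0.17 SE, adjusted p = 3.05e-05). Hoxb2, its neighbour in the cluster, had 6.93 and 11.8 CPM with auxin and 26.7 and 21.3 CPM with DMSO (-1.36, adjusted p = 0.0544) and did not pass. Hoxa3 stood at 39.5 ± 5.62 CPM with auxin and 60.5 ± 2.69 CPM with DMSO (-0.61, adjusted p = 0.0346), below the fold threshold. By day 2, 10 of the 18 genes were lower with auxin and none higher (median -1.20), beside 1.88% and 2.93% of all tested genes, and Hoxb1 stood at 271 and 273 CPM with auxin and at 213 and 209 CPM with DMSO. Hoxa5 was the member already lower at 8 h, at 36.6 and 28.0 CPM with auxin and at 77.6 and 72.7 CPM with DMSO (-1.21, adjusted p = 0.000228).

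Among the TALE and Cdx partners of Hox proteins, 1 of 13 tested genes was higher and 1 lower (7.69% in each direction, beside 1.02% and 1.38% of all tested genes). Meis2, a TALE homeodomain cofactor, was the higher one, at 200 and 199 CPM with auxin against 64.2 and 70.1 CPM with DMSO (log2 fold change 1.57 ± 0.15 SE, adjusted p = 7.33e-08). Meis3 was the lower one, with no read in either auxin sample and 11 reads in the DMSO samples, at least 3.17-fold lower, a call lost with DESeq2 or without either auxin replicate or DMSO replicate 2 (adjusted p up to 0.184). Cdx1, which was higher with auxin at day 2 (1.46, adjusted p = 1.11e-06), stood at 102 and 128 CPM with auxin at day 1 and at 91.4 and 78.2 CPM with DMSO (0.44, adjusted p = 0.122).

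**Figure D3:**
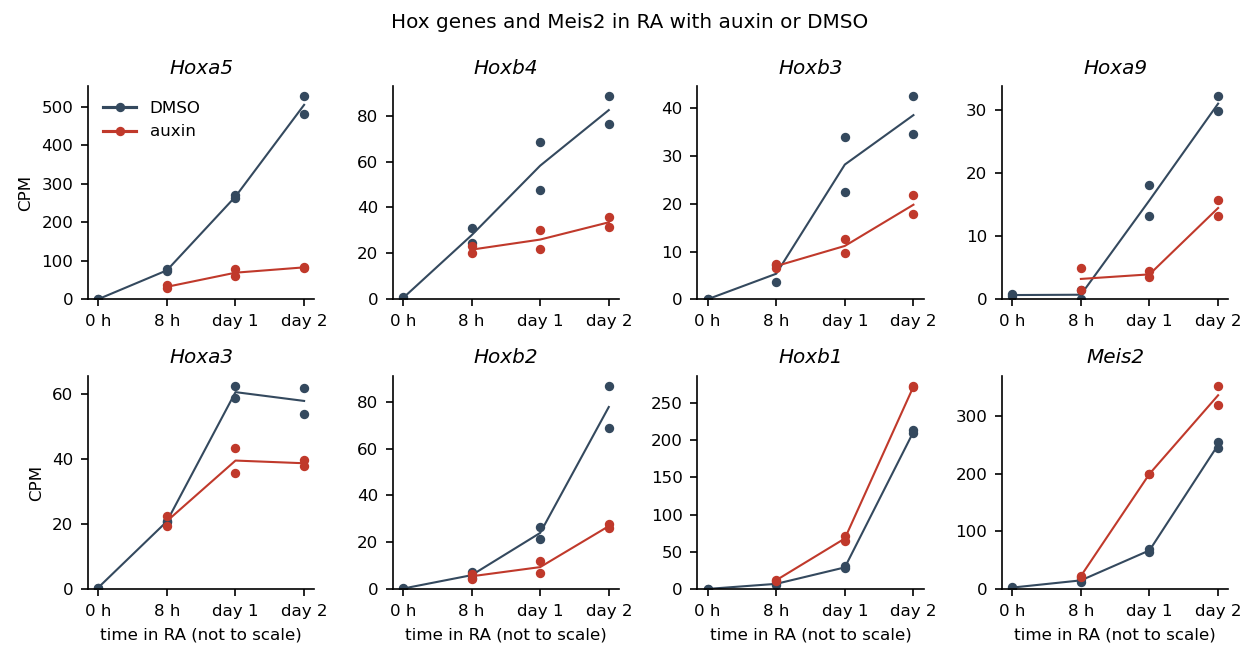
CPM (vertical axes, from 0, with a scale of their own) of 7 Hox genes and Meis2 at 0 h, 8 h, day 1 and day 2 of RA (horizontal axis, not to scale); dark points are DMSO samples, red points auxin samples, and lines join the means. Hoxa5 lies lower with auxin from 8 h, the points of Hoxb4, Hoxb3, Hoxa9 and Hoxb2 lie lower with auxin at day 1 and day 2, and Hoxb1 and Meis2 lie higher with auxin at day 1.

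The 12 genes with the largest falls among those above 20 CPM ran from Dok1 (-2.04) to Cdkn1c (-1.65), with Hoxa5, Mymx, Pmp22, Stard10, Pdlim2 (-1.73), Gstt3 (-1.73), Ggta1 (-1.72), Phlda2, Apoe and Fcgrt (-1.65) between them. The calls of Dok1 and Pdlim2 were lost without auxin replicate 1 (adjusted p up to 0.0904 and 0.0579), that of Ggta1 without auxin replicate 2 or DMSO replicate 1 (up to 0.123), that of Gstt3 without any of the 4 samples (up to 0.170), and that of Fcgrt with DESeq2 and without auxin replicate 2 or either DMSO replicate (up to 0.190). Cdkn1c, which encodes the cyclin-dependent kinase inhibitor p57 (chromosome 7, 143458339 to 143461050), had 520 and 483 CPM with auxin and 1469 and 1674 CPM with DMSO (log2 fold change -1.65 ± 0.11 SE, adjusted p = 1.18e-10). Its neighbour Phlda2, an imprinted restrainer of placental growth, had 73.1 and 65.5 CPM with auxin and 255 and 203 CPM with DMSO (-1.72, adjusted p = 1.62e-08). DMSO cells raised Cdkn1c from 166 and 187 CPM at 0 h, whereas Phlda2 fell from 497 and 408 CPM, so the same direction with auxin came with opposite courses in RA.

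Mymx, which encodes a small membrane protein of myoblast fusion, had 72.5 and 52.3 CPM with auxin and 220 and 232 CPM with DMSO (-1.85, adjusted p = 1.68e-07). Ooep, a component of the maternal complex of oocytes, had 88.2 and 78.0 CPM with auxin and 275 and 238 CPM with DMSO (-1.62, adjusted p = 2.53e-08). Apoe, the lipoprotein component, had 22.7 and 15.3 CPM with auxin and 56.8 and 67.8 CPM with DMSO (-1.70, adjusted p = 8.99e-05). Each of these genes kept its call in all alternatives, with every auxin sample below every DMSO sample. Stard10, a lipid transfer protein, stood at 14.5 ± 0.840 CPM with auxin and 48.9 ± 2.45 CPM with DMSO (-1.74, adjusted p = 8.07e-06), and Pacsin3, of endocytosis, at 12.5 ± 0.981 CPM and 38.9 ± 2.77 CPM (-1.62, adjusted p = 0.000802). Pmp22, a myelin membrane protein that RA induced in DMSO cells, stood at 5.90 ± 1.45 CPM with auxin and 20.5 ± 5.47 CPM with DMSO (-1.78, adjusted p = 0.00503), a call lost without auxin replicate 2 or DMSO replicate 1 (adjusted p up to 0.0898).

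The stress-linked genes Atf5, Gdf15 and Cth were lower with auxin. Atf5, a transcription factor of the integrated stress response, had 92.6 and 106 CPM with auxin and 296 and 233 CPM with DMSO (log2 fold change -1.42 ± 0.15 SE, adjusted p = 9.41e-07). Gdf15, a cytokine induced by cell stress, had 20.2 and 27.9 CPM with auxin and 76.6 and 67.3 CPM with DMSO (-1.59, adjusted p = 0.000105). Cth, which makes cysteine from cystathionine, stood at 198 ± 17.8 CPM with auxin and 399 ± 35.5 CPM with DMSO (-1.01, adjusted p = 8.99e-05), and its fold change of -0.95 without 1 of the samples (auxin replicate 1 or DMSO replicate 2) was under the threshold. Atf5 was not on the list of integrated stress response genes. Of the 35 tested genes of that list, Gdf15, Cth and Cebpb were lower and the cystine transporter Slc7a11 higher. Of the 35, 26 lay below 0, and the median was -0.12. Over all tested genes 1.38% were lower, 1.02% higher and 47% below 0. Cebpb and Slc7a11 had adjusted p of 0.048 and 0.0472 and lost their calls with DESeq2 and without auxin replicate 1 or DMSO replicate 1, and Slc7a11 also without TMM factors, multimapped reads, auxin replicate 2 or DMSO replicate 2 (adjusted p up to 0.436 and 0.371). The transcript of Atf4, the factor upstream of these genes, had overlapping groups. It was at 1277 and 1427 CPM with auxin and 1483 and 1317 CPM with DMSO (-0.05, adjusted p = 0.869).

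Lists of cell cycle genes held a share of changed genes close to that of all tested genes (1.02% higher and 1.38% lower). Of 51 tested genes of DNA replication and G1/S, Ccnd2 was lower, at 37.8 and 47.4 CPM with auxin and 104 and 92.6 CPM with DMSO (-1.21, adjusted p = 1.01e-05), none was higher, and the median was -0.10 (0.05 at a minimum mean of 50 reads). Of 41 tested mitosis and G2/M genes none passed (median 0.08). Pclaf, a partner of the replication clamp, was lower (354 and 368 CPM with auxin, 842 and 819 CPM with DMSO; -1.20, adjusted p = 1.15e-08), but 58.5% of the reads were multimapped and its level is uncertain.

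**Figure D4:**
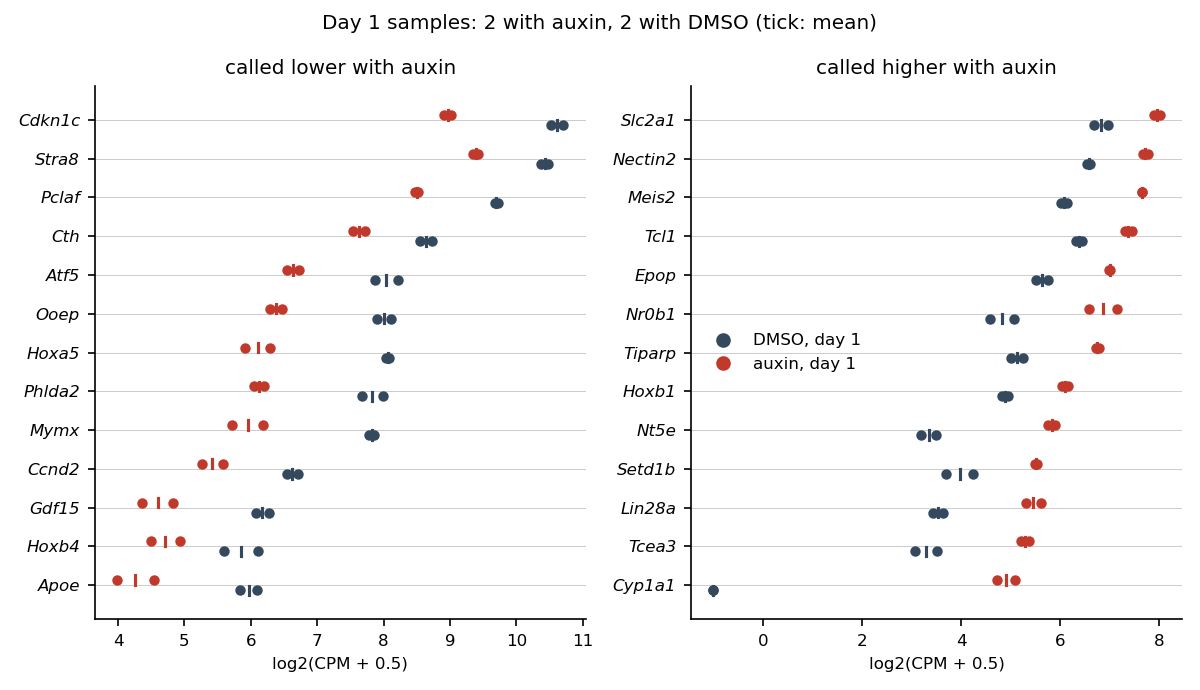
Log2(CPM + 0.5) of each day 1 sample (horizontal axes; dark points DMSO, red points auxin, vertical ticks the mean of the log values) for 13 genes lower (left) and 13 genes higher (right) with auxin. In every gene shown the 2 auxin points lie apart from the 2 DMSO points; Cyp1a1 had no read with DMSO.

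Naive and core pluripotency genes, which RA silences, had higher as well as lower members. Of 29 tested naive pluripotency genes, Nr0b1, Prdm14 and Tcl1 were higher and Gdf3 lower, with 21 of 29 above 0 and a median log2 fold change of 0.27. Over all tested genes 1.02% were higher and 1.38% lower, and 47% lay below 0. DESeq2 called none of the 29 higher and 1 lower, and the counts were 2 and 2 without TMM factors and 1 and 1 at a minimum mean of 50 reads. Of 15 tested core pluripotency genes, Lin28a, Sall1 and Tdh were higher and none lower, with a median of 0.35. At an adjusted p below 0.05 with no fold threshold, 10 naive genes were higher and 4 lower, and 6 core genes were higher and 1 lower, beside 4.27% and 2.97% of all tested genes. The summed level of the naive list went the other way from its median, at 7471 and 7377 CPM with auxin and 8675 and 9027 CPM with DMSO. Its most abundant member Dppa5a stood at 2335 ± 36.8 CPM with auxin and 4511 ± 192 CPM with DMSO (-0.95, adjusted p = 8.75e-08), short of the fold threshold, and none of its reads had a single mapping position.

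Nr0b1, an orphan nuclear receptor of naive mES cells, had 94.5 and 140 CPM with auxin and 32.9 and 23.6 CPM with DMSO (log2 fold change 2.04 ± 0.42 SE, adjusted p = 0.00292). Lin28a, which blocks let-7 processing, had 39.1 and 48.1 CPM with auxin and 11.9 and 10.3 CPM with DMSO (1.96 ± 0.27 SE, adjusted p = 3.15e-05). Tdh, the threonine dehydrogenase on which mES cells depend, had 35.9 and 31.4 CPM with auxin and 15.9 and 9.20 CPM with DMSO (1.42, adjusted p = 0.00043). In all these genes both groups had fallen from DMSO at 0 h, where Tdh had 736 and 703 CPM, Nr0b1 174 and 144 CPM and Lin28a 130 and 141 CPM. The Nr0b1 call was lost without auxin replicate 2 or DMSO replicate 2 (adjusted p up to 0.0744) and with DESeq2, and the Prdm14 call, at 8.19 and 8.36 CPM with auxin and 1.70 and 1.15 CPM with DMSO, with DESeq2 and without any of the 4 samples (adjusted p up to 0.159).

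Tcl1, a co-activator of AKT, lay at the fold threshold with 157 and 173 CPM with auxin and 78.9 and 85.7 CPM with DMSO (1.00, adjusted p = 8.07e-06), and it was under the threshold in 8 of 11 alternatives, among them those without auxin replicate 2 or DMSO replicate 1 (fold change from 0.90 to 1.04). Sall1 stood at 32.3 ± 3.32 CPM with auxin and 13.7 ± 3.92 CPM with DMSO (1.24, adjusted p = 0.00251), and its call was lost without auxin replicate 1 or DMSO replicate 2 (adjusted p up to 0.0807). Klf2, which did not reach 2-fold, had 149 and 155 CPM with auxin and 106 and 83.4 CPM with DMSO (0.68, adjusted p = 0.00128). Esrrb, another naive factor, had 120 and 109 CPM with auxin and 139 and 162 CPM with DMSO (-0.39, adjusted p = 0.0551), so not all members of the network leaned the same way. Gdf3, a NODAL-related ligand, was lower at 13.2 and 7.66 CPM against 25.5 and 28.7 CPM (-1.36, adjusted p = 0.00963), a call lost without auxin replicate 2 or DMSO replicate 2 (adjusted p up to 0.146). Of 20 tested formative and epiblast genes, Spry4, a feedback inhibitor of FGF signalling, was higher and none lower (beside 1.02% and 1.38% of all tested genes). The median of the 20 was 0.29, beside 0.03 over all tested genes. Spry4 was called at 11.1 ± 5.00 CPM with auxin against 2.01 ± 1.23 CPM with DMSO (2.42, adjusted p = 0.00973). That call was lost without auxin replicate 2 or DMSO replicate 1 (adjusted p up to 0.186).

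The genes with the largest increases above 20 CPM included Nt5e, Muc3 and Tcea3. Nt5e, the ectonucleotidase CD73 (chromosome 9, 88327197 to 88372092), had 53.6 and 59.2 CPM with auxin and 10.8 and 8.62 CPM with DMSO, a 5.77-fold difference (log2 fold change 2.53 ± 0.29 SE, adjusted p = 1.98e-06). Muc3, a membrane mucin, had 35.3 and 21.6 CPM with auxin and 6.25 and 3.45 CPM with DMSO (2.54, adjusted p = 0.000284). Tcea3, a relative of the elongation factor TFIIS that mES cells express, had 36.5 and 41.1 CPM with auxin and 7.95 and 10.9 CPM with DMSO (2.03, adjusted p = 4.42e-05). All 3 genes kept their calls in all alternatives.

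Hedgehog receptors were on no list. Ptch1, which binds Hedgehog ligands, had 42.2 and 36.9 CPM with auxin and 11.9 and 12.1 CPM with DMSO (1.72, adjusted p = 0.000133). Boc, a co-receptor, had 37.2 and 27.2 CPM with auxin and 7.38 and 12.6 CPM with DMSO (1.69, adjusted p = 0.00175), a call lost without auxin replicate 1 or DMSO replicate 1 (adjusted p up to 0.0752). Gas1, another co-receptor, named after its values were seen, was lower at 2.52 and 3.48 CPM with auxin against 11.4 and 13.2 CPM with DMSO (-2.02, adjusted p = 0.0097). The single genes Pkp2, plakophilin (46.0 and 53 CPM with auxin, 17.0 and 14.9 CPM with DMSO; 1.62, adjusted p = 7.38e-05) and Dsp, desmoplakin (30.9 and 22.3 CPM with auxin, 7.95 and 9.77 CPM with DMSO; 1.59, adjusted p = 0.000493) were higher as well. Slc2a1, the glucose transporter GLUT1, had 256 and 237 CPM with auxin and 102 and 125 CPM with DMSO (1.12, adjusted p = 2.24e-06), the 1 changed gene of 24 tested hypoxia-responsive genes (4.17% higher, beside 1.02% of all tested genes), and its fold change was 0.95 without DMSO replicate 1. Nectin2, an adhesion receptor, had 202 and 218 CPM with auxin and 96.5 and 92.6 CPM with DMSO (1.15, adjusted p = 1.87e-06).

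Each list of genes that write or remove histone and DNA methylation held 1 changed gene, beside 1.02% of all tested genes higher and 1.38% lower. Of 17 tested subunits of H3K4 methyltransferase complexes, Setd1b, the catalytic subunit of a SET1 complex, was higher and none lower. Without the fold threshold Kmt2a, Kmt2c, Hcfc1 and Setd1b were higher, beside 4.27% of all tested genes. Setd1b had 46.0 and 44.6 CPM with auxin and 12.5 and 18.4 CPM with DMSO (log2 fold change 1.55 ± 0.22 SE, adjusted p = 5.27e-05). Its DMSO level was 195 and 192 CPM at 0 h and 51.4 and 49.5 CPM at day 2, so the DMSO level of day 1 was below those of 0 h and day 2. The partners of DPY30 in the core, Ash2l (716 ± 17.5 against 741 ± 35.7 CPM), Rbbp5 (81.0 ± 8.56 against 83.9 ± 12.2 CPM) and Wdr5 (350 ± 21.0 against 331 ± 19.1 CPM), did not pass (adjusted p = 0.823, 0.891 and 0.740).

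Of 31 tested Polycomb subunits, Epop, a PRC2-associated protein, was higher at 128 and 127 CPM with auxin against 44.9 and 53.5 CPM with DMSO (1.37, adjusted p = 8.86e-07). Of 13 tested DNA methylation enzymes, Dnmt3l was higher at 42.2 and 46.7 CPM against 26.7 and 15.5 CPM (1.07, adjusted p = 0.00661), a call lost without auxin replicate 2 or DMSO replicate 2 (adjusted p up to 0.169). Of 5 tested H3K4 demethylases, Kdm1b was lower at 3.15 and 9.06 CPM against 15.9 and 14.4 CPM (-1.33, adjusted p = 0.0478), a call lost with DESeq2 and without auxin replicate 1 or either DMSO replicate (adjusted p up to 0.431). Of 35 tested pausing, elongation and Integrator genes none changed (median 0.17).

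Of 103 tested ribosome biogenesis factors, Nol6 was higher and Senp3 lower by the full criteria, but 87 of 103 lay above 0, the median was 0.26, and without the fold threshold 16 were higher and 1 lower. Over all tested genes 1.02% were higher and 1.38% lower by the full criteria, and 47% lay below 0. Without the fold threshold 4.27% of all tested genes were higher and 2.97% lower. Ncl, the abundant nucleolar protein nucleolin, had 1961 and 1808 CPM with auxin and 1132 and 1147 CPM with DMSO (0.73, adjusted p = 1.11e-05). Npm1, the nucleolar chaperone, had 4282 and 4461 CPM with auxin and 3367 and 3379 CPM with DMSO (0.37, adjusted p = 0.00251). The summed level of the list was 19132 and 19321 CPM with auxin and 15623 and 15746 CPM with DMSO, with no overlap. Cytosolic ribosomal protein genes (75 tested, none changed) had a median of 0.14, and 7 of them were higher without the fold threshold. Nol6 lost its call without auxin replicate 1 or DMSO replicate 2 (adjusted p up to 0.0556), and Senp3, with 55.9% multimapped reads, without those reads or any of the 4 samples (adjusted p up to 0.163).

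The aryl hydrocarbon receptor (AhR) target Cyp1a1, a xenobiotic-metabolising enzyme, was switched on with auxin. It had 33.4 and 25.8 CPM (90 reads) with auxin and no read with DMSO, at least 34.7-fold higher when the floor is set at 3 reads over the DMSO group. Tiparp, another classical AhR target, had 110 and 105 CPM with auxin and 31.8 and 37.4 CPM with DMSO (1.63, adjusted p = 0.000183). These were the changed members among 10 tested AhR targets, none was lower (20.0% and 0, beside 1.02% and 1.38% of all tested genes), and the median was 1.17. That median rested on scarce genes: it was 0.29 over the 5 genes tested at a minimum mean of 50 reads and 0.74 without a filter, with 2 genes higher in each. At day 2, 5 of the 10 were higher, beside 2.93% of all tested genes. Indole compounds such as auxin are a known class of AhR ligands, and auxin without the degron was not analysed here, so an effect of the compound and one of DPY30 loss cannot be told apart for these genes.

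Markers of other lineages follow, to be read against the 1.02% of all tested genes that were higher and the 1.38% that were lower. Among 24 tested primitive endoderm markers, Foxa2 (6.30 and 7.66 CPM with auxin, 0 and 2.30 CPM with DMSO) and Lama1 (15.1 and 13.2 against 5.68 and 2.30 CPM) were higher and Apoe lower, and Gata6, a defining gene, was at 16.4 and 17.4 CPM with auxin and 18.2 and 15.5 CPM with DMSO. Both calls were lost without either auxin replicate, that of Foxa2 also without DMSO replicate 1 and that of Lama1 without DMSO replicate 2 (adjusted p up to 0.236 and 0.185). The summed primitive endoderm level was 643 and 642 CPM with auxin and 693 and 677 CPM with DMSO. Among 13 tested neural markers, Ncam1 was higher (115 and 130 against 59.0 and 57.5 CPM; 1.07, adjusted p = 2.03e-05) and Hoxc4 lower (1.89 and 3.48 against 15.9 and 11.5 CPM; -2.34, adjusted p = 0.00153). Without auxin replicate 2 the fold change of Ncam1 was 0.95, and without auxin replicate 1 the adjusted p of Hoxc4 was 0.0533. The summed neural level was 430 and 468 CPM with auxin and 333 and 305 CPM with DMSO, and Dcx and Nefm were at 0 in all 4 samples. Stat3, Kdm2b and Ints8, of other lists, were also at 0 in all 4 samples. Whether such a 0, here and below, reflects an absent transcript or uncounted reads was not tested.

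Among 19 tested trophectoderm and simple epithelial markers, Dsp was higher and Krt18 lower, the latter at 1.26 and 0 CPM against 5.11 and 4.02 CPM, with summed levels of 464 and 511 CPM with auxin and 531 and 535 CPM with DMSO and Elf5, Prl3d1 and Psca at 0 in all samples. The Krt18 call was lost with DESeq2, without multimapped reads and without any of the 4 samples (adjusted p up to 0.293). None of 15 tested mesoderm and primitive streak markers changed. Their median of -0.72 rested on low levels, summing to 63.0 and 43.2 CPM with auxin and 77.8 and 75.9 CPM with DMSO. Of 12 tested fibroblast and feeder markers, Vim was higher (149 and 185 against 63.6 and 99.5 CPM; 1.03, adjusted p = 0.000332), and it lost its call without TMM factors, without a filter on low counts, in the 4 day 1 samples alone, and without auxin replicate 2 or DMSO replicate 1 (fold change from 0.71 to 1.36). The summed fibroblast level was 372 and 374 CPM with auxin and 198 and 229 CPM with DMSO, most of it Vim and Fn1, while Col3a1, Dcn, Fap, Lum and Postn had no read in any sample and Col1a1 was at 2.52 and 3.48 CPM with auxin and 1.14 and 1.15 CPM with DMSO.

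Of 11 Myc and Max network genes Mnt was higher and Mycl lower (median -0.16), of 26 actin and SRF targets Junb was lower (median 0.20), and of 26 p53 targets Gdf15 was lower (median 0.19), beside 1.02% of all tested genes higher and 1.38% lower. Junb, an AP-1 subunit, had 2.52 and 4.18 CPM with auxin and 21.0 and 11.5 CPM with DMSO (-2.27, adjusted p = 0.00161), a call lost without auxin replicate 1 or DMSO replicate 1 (adjusted p up to 0.0597). Mnt lost its call without any of the 4 samples (adjusted p up to 0.178), and Mycl with DESeq2 and without auxin replicate 1 or either DMSO replicate (adjusted p up to 0.342). No gene changed among 22 cholesterol synthesis and uptake genes, 73 nuclear genes of the respiratory chain, 20 NODAL, BMP and WNT feedback genes, 20 germline and 2-cell genes, and 14 histone genes with polyadenylated transcripts, with medians from -0.07 to 0.21. In the histone list 1 gene was lower with DESeq2, without TMM factors, without multimapped reads and under the other filters.

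Day 1 stood between a time with few changes and a time with more. At 8 h, 2 of the 11415 genes (0.0175%) were higher with auxin and 16 (0.14%) lower, and at day 2, 334 (2.93%) were higher and 215 (1.88%) lower. Of the 157 genes lower at day 1, 8 were lower at 8 h (5.10% of the day 1 list and 50.0% of the 8 h list) and 43 at day 2 (27.4% and 20.0%), and Dkk3 was higher at day 2. The Dkk3 call at day 1 was lost without auxin replicate 2 or DMSO replicate 2 (adjusted p up to 0.111). Of the 116 genes higher at day 1, none was called at 8 h and 30 were higher at day 2 (25.9% of the day 1 list and 8.98% of the day 2 list), with none lower. The day 2 medians of the 116 and 157 genes were 0.62 and -0.73 beside 0.04 over all tested genes, so most of the day 1 genes leaned the same way at day 2, with smaller sizes. The members were chosen on their day 1 values, so the day 1 sizes are a description.

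The difference between effects was tested with interaction contrasts. The auxin effect was higher at day 1 than at 8 h for 71 genes (0.622%) and lower for 49 (0.429%). Without TMM factors, which puts the median of all genes at -0.11 in place of 0.02, the split was 34 and 72. Leaving out any 1 of the 8 samples gave 28 to 49 genes higher and 14 to 27 lower. Stard10 is an example of a gene that parted after 8 h, at 7.91 and 9.50 CPM with auxin and 6.46 and 8.61 CPM with DMSO at 8 h, a difference between effects of -1.93 on the log2 scale. Cdkn1c, Phlda2 and Ooep differed by -1.04, -1.14 and -1.03, and Nt5e, at 46.5 and 51.5 CPM with auxin and 44.7 and 56.9 CPM with DMSO at 8 h, by 2.59.

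The auxin effect was lower at day 2 than at day 1 for 63 genes (0.552%) and higher for 22 (0.193%). Without TMM factors, which puts the median of all genes at 0.12 in place of -0.01, the split was 35 and 35. Leaving out any 1 of the 8 samples gave 37 to 59 genes lower and 8 to 19 higher. Setd1b, Slc2a1, Lin28a and Ncam1 belonged to the 63, as did Meis2 and Nectin2. Slc2a1 was at 525 and 538 CPM with auxin and at 491 and 500 CPM with DMSO at day 2, and Ncam1 at 166 and 188 CPM against 200 and 215 CPM. In Setd1b, Slc2a1, Lin28a and Nectin2 the DMSO level was lower at day 1 than at 8 h and at day 2, and the auxin samples stood above it at day 1. For Nr0b1, Tdh and Tcl1, which were higher with auxin at both days, the difference between the days did not pass (-0.03, 0.02 and 0.11). Atf5 parted further, with an auxin effect of -3.18 at day 2 (26.7 and 23.6 CPM with auxin, 213 and 244 CPM with DMSO) and a difference of -1.76 (adjusted p = 0.000122).

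**Figure D5:**
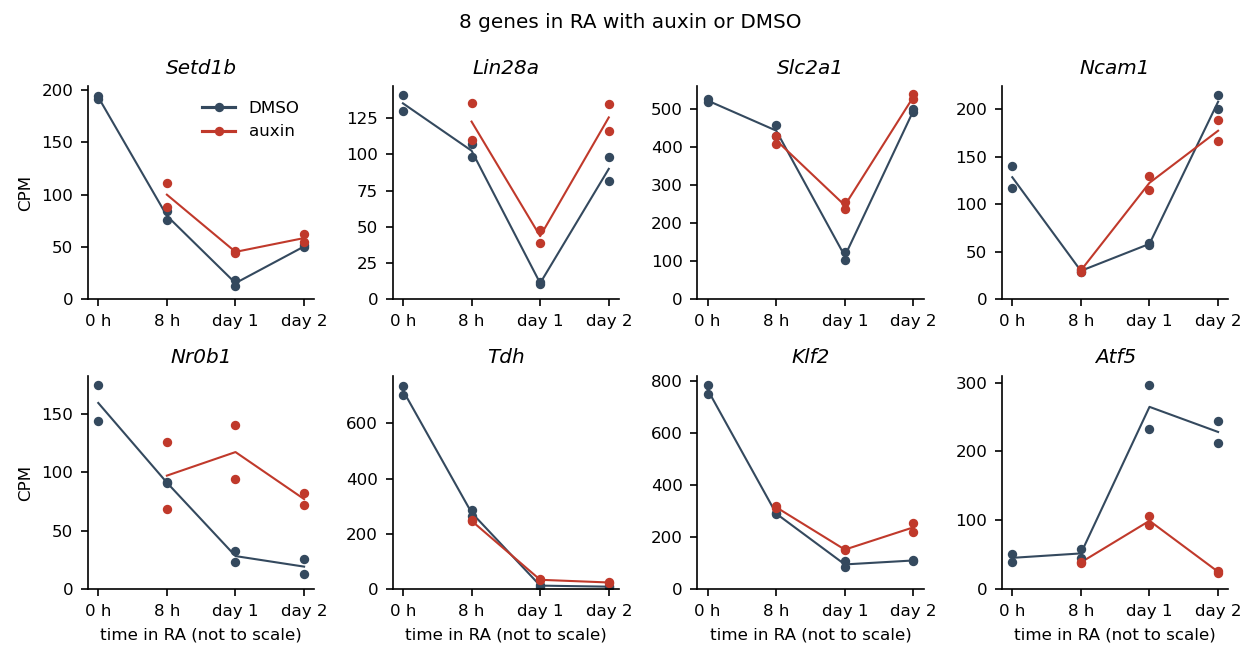
CPM (vertical axes, from 0, with a scale of their own) of 8 genes at 0 h, 8 h, day 1 and day 2 of RA (horizontal axis, not to scale); dark points are DMSO samples, red points auxin samples, and lines join the means. Setd1b, Lin28a and Slc2a1 lie above DMSO at day 1 and less so at day 2, Ncam1 lies above DMSO at day 1 and below it at day 2, Nr0b1, Tdh and Klf2 lie above DMSO at both, and Atf5 lies below at both.

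Auxin for 24 h without RA gave a different set of values for many of these genes. In that experiment, with 4SU labelling of the RNA, 607 of 9848 tested genes (6.16%) were higher and 694 (7.05%) lower, and the difference between the experiments was not tested. Of the 116 genes higher at RA day 1, 95 were tested there, of which 9 were higher and 8 lower (median -0.28). Of the 157 lower genes, 114 were tested, of which 24 were lower and 7 higher (median -0.31 beside 0.01 over all tested genes). Setd1b was lower there (-1.24, adjusted p = 2.32e-11) and higher in RA, and Ncl was lower there (-1.16, adjusted p = 6.47e-17) and leaned higher in RA. Prdm14 was lower there (-5.28, adjusted p = 2.64e-05), and Cdkn1c was higher there (1.30, adjusted p = 0.000124) and lower in RA. Phlda2 (-1.36), Ccnd2 (-1.96), Atf5 (-1.65) and Stra8 (-3.76) were lower in both experiments, and Nt5e (2.12) was higher in both. Of the 103 ribosome biogenesis factors, 13 were lower and none higher without RA (median -0.33).

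Features that the test did not use are given as a description, with no test. The lengths of all 3′ UTR intervals of a gene were summed. The median of this sum was 1037 bases for the 157 lower genes, 1466.5 bases for the 116 higher genes and 1559 bases for all tested genes. The median gene length was 11834, 42443 and 25176 bases. Promoters of the changed genes were poorer in CpG in both directions. The median observed to expected CpG ratio in the RefSeq windows was 0.607 for 84 higher genes and 0.607 for 118 lower genes, beside 0.775 for 9045 tested genes. A ratio above 0.6 was reached by 51.2% and 53.4% of them, beside 74.8% of all. GC content was 59.3%, 60.7% and 61.3%. The changed genes were also less abundant, at a median of 24.4 CPM (higher) and 17.0 CPM (lower) beside 26.8 CPM, and how abundance bears on these features was not tested.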

How the data were processed

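The series holds 58 samples of mES cells, 22 measured by Quant-seq and 36 by SLAM-seq, of which the 2 auxin and 2 DMSO Quant-seq samples of DPY30-mAID cells at RA day 1 are the subject here. The deposited tables give read counts per 3′ UTR interval on GRCm38/mm10, and their headers name SlamDunk 0.3.4, while the methods and labels name HISAT2 2.2.1 and featureCounts. The reads counted by the authors were summed per gene over 46420 intervals into 20177 genes. The CPM column deposited by the authors was used only for its sum: 46.25% to 48.88% of the mapped reads of the day 1 samples lay in the intervals. Reads mapped to more than 1 place (33.47% to 33.88%) are included, and no molecular identifiers were stated, so PCR copies count as reads.

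Groups were taken from the labels. Genes whose group mean reached 10 reads in any group were tested with edgeR 4.0.16 (quasi-likelihood test, TMM, R 4.3.3) in 1 fit over 21 samples in 11 groups, without a replicate block, and a gene was called at a Benjamini-Hochberg adjusted p below 0.05 and an absolute log2 fold change above 1. The 2 DMSO day 6 samples held identical values and were counted as 1. The 24 h auxin experiment had a fit of its own over 12 samples. On simulated counts with 200 genes changed by 2 on the log2 scale, 86.5% were recovered for the day 1 comparison, with 8 false calls. Alternatives were DESeq2 1.42.0, no TMM, other filters, no multimapped reads, a replicate block, only the day 1 samples, and leaving out each sample. Named genes were any members of the gene lists, the 12 largest calls in each direction with at least 20 CPM in the higher group, the 6 most abundant calls in each direction (all without overlap between groups), and the 5 largest calls in each direction of each interaction contrast. The samples and the gene lists were chosen with earlier results of these data known. Fold changes of genes at 0 in 1 group are lower bounds against 3 reads over that group, for counting error only. Dpy30 protein was not analysed here, and some genes are not reported here.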

Additional observations from a re-analysis of the deposited data

Results flagged for a closer look

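The genes below are named genes whose auxin effect at day 1 differed from that at another time by the interaction test (edgeR's quasi-likelihood test, adjusted p below 0.05 and a difference above 1 on the log2 scale). They also had to be called at day 1 or to be among the 5 largest of their contrast and direction. Choosing on the day 1 effect favours a sign: day 1 minus 8 h was above 0 for 115 of all 116 genes higher at day 1. It was below 0 for 152 of the 157 lower genes. Between 8 h and day 1 the effect rose for 71 genes and fell for 49. Among the named genes, the difference of day 1 minus 8 h was -8.16 for Hoxa10 (no read with auxin at day 1, so no measured size), -4.10 for Dkk3, -3.92 for Hoxa9, -2.91 for Junb, -2.25 for Dok1, -2.10 for Kdm1b, -1.97 for Selenom and -1.93 for Stard10. It was -1.85 for Pacsin3, -1.54 for Apoe, -1.14 for Phlda2, -1.04 for Cdkn1c and -1.03 for Ooep. On the other side it was 1.01 for Nol6, 1.04 for Ncam1, 1.21 for Slc2a1, 1.22 for Setd1b, 1.25 for Dnmt3l, 1.27 for Epop, 1.37 for Sall1 and 1.55 for Ptch1. The largest rises were 1.58 for Tdh, 1.70 for Lin28a, 2.11 for Tcea3, 2.13 for Thnsl2, 2.47 for Pkp2, 2.59 for Nt5e, 2.83 for Gsta3 and 2.95 for Prdm14.

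Between day 1 and day 2 the effect rose for 22 genes and fell for 63. The difference of day 2 minus day 1 was -3.23 for Spry4, -2.33 for Lama1, -2.15 for Podxl, -1.82 for Rad18, -1.80 for Nt5e, -1.76 for Atf5, -1.48 for Lin28a and -1.47 for Sall1. It was -1.34 for Setd1b, -1.32 for Nectin2, -1.30 for Ncam1, -1.22 for Dnmt3l, -1.18 for Pclaf, -1.15 for Meis2, -1.14 for Vim and -1.02 for Slc2a1. It was 1.96 for Olfm1, 1.99 for Aurkc, 2.10 for Palm3, 2.74 for Ephx2 and 3.42 for Dkk3. Both contrasts use the same 4 day 1 samples, so a deviation of a day 1 sample enters both with opposite signs. Of the reads of Aurkc and Pclaf, 49.6% and 58.5% mapped to more than 1 place.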

How the results depend on the processing

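None of the 75 named genes reversed its direction in any alternative, and 30 kept their call in all. The counts of genes higher and lower at day 1 (116 and 157) were 62 and 80 with DESeq2, 77 and 113 at a minimum mean of 50 reads, 487 and 339 without the fold threshold, and 62 to 73 and 81 to 104 when 1 sample was left out. They were 98 and 181 without TMM factors, 117 and 206 without a filter on low counts, 100 and 178 without multimapped reads, and 113 and 228 in the 4 day 1 samples alone. Of the 273 genes, 139 (50.9%) were called by DESeq2 too, and 117 to 137 without 1 sample. The self-test recovered 86.5% of the changed genes at this sample size, at a log2 change of 2, with 8 false calls. That change is larger than the medians of the real calls (1.54 and -1.44), and recovery of smaller changes was not simulated. For day 1 against 8 h (71 and 49), the counts were 34 and 72 without TMM factors, 49 and 14 with DESeq2, and 28 to 49 and 14 to 27 without 1 sample. For day 2 against day 1 (22 and 63), they were 35 and 35 without TMM factors, 6 and 53 with DESeq2, 67 and 78 without the filter, and 8 to 19 and 37 to 59 without 1 sample. The RA response at day 2 held 1105 and 748 genes at a minimum mean of 50 reads, where fewer genes are tested. The difference in RA progress kept its sign throughout. On RA-induced genes it was -0.0971 without TMM factors, -0.0508 at 50 reads, -0.0877 without multimapped reads and -0.0834 to -0.0718 without 1 sample, and on RA-repressed genes -0.0949, -0.179, -0.103 and -0.134 to -0.113. The causes of these shifts were not tested. Same-numbered replicates did not pair: their deviations at day 1 correlated at -0.00555, and over 45 pairs of RA groups at -0.189 to 0.282. With the number as a replicate block, 117 and 156 genes were called at day 1, 69 and 46 for day 1 against 8 h, 24 and 63 for day 2 against day 1, 1848 and 1154 for the RA response and 586 and 679 for 24 h of auxin, and of the genes named above Cebpb and Kdm1b lost their calls. At 1553987 to 1843040 reads per day 1 sample, genes below about 10 reads were measured imprecisely.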

Other observations

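The genes below were chosen after their values were seen, so nothing is said of their families. Within 600 kb around Cdkn1c on chromosome 7, the imprinted domain that also holds Phlda2, the transporter gene Slc22a18 (143473736 to 143499334) had no read with auxin and 5.68 and 8.05 CPM with DMSO, at least 6.91-fold lower (adjusted p = 0.00217). The neighbours Nap1l4 (log2 fold change -0.07), Cars (0.28), Tnfrsf22 (0.89) and Osbpl5 (-1.15) did not pass the test. Slc22a18 lies between Cdkn1c and Phlda2, so the 3 lower genes are adjacent.

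H2-K1 had 25.8 and 22.3 CPM with auxin and 53.9 and 59.8 CPM with DMSO (log2 fold change -1.23, adjusted p = 0.000648), H2-D1 15.1 and 22.3 CPM against 39.7 and 44.3 CPM (-1.17), and H2-Q7 27.1 and 32.7 CPM against 65.9 and 59.2 CPM (-1.07). These are related genes whose reads may be shared between them, so they may not be 3 independent measurements. How many of their reads are shared was not examined. After 24 h of auxin without RA they parted, at log2 fold changes of -1.39 for H2-K1, -1.12 for H2-D1 and 2.10 for H2-Q7. The single genes Efna1 (-2.32), Efna4 (-1.52) and Efna2 (-1.13) were lower, and Efna5 had 7 reads with auxin and none with DMSO, at least 2.70-fold higher. Transcription factors on no list went both ways. Tead1, a partner of YAP, had 96.4 and 101 CPM with auxin and 42.6 and 42.0 CPM with DMSO (1.22), and Sall3 had 90.1 and 89.9 CPM with auxin and 30.7 and 30.5 CPM with DMSO (1.56). In the other direction, the factors Zbtb7a (-1.31), Arntl (-1.28), Stat6 (-1.11), Hmga2 (-1.07) and Irf1 (-1.02), also on no list, were lower.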
